A study of Mus musculus with 72 samples.

Results

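Interferon-stimulated genes are the genes that cells switch on after an interferon has bound its receptor, and 39 of them were followed here by name through mouse liver microarrays. Of the 39, 37 had a probe set annotated with that gene alone, and the probe set with the highest mean was taken for each gene. Ifi44 was not listed with a probe set, and Gbp2 was listed only together with Gbp2b. A filter on the 40% of genes with the lowest mean left 13308 of 22180 genes and 35 of the 37. The genes just inside the filter were Ifit2 and Oas3, with means of 6.12 and 6.44, and those just outside were Mx1 and Gbp6, with means of 5.54 and 5.40, against a filter value of 6.00. All levels and differences below are on the scale of log2(intensity + 16), which understates the change of a dim gene.

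The livers came from 2 cohorts of mice kept in 12 h of light and 12 h of dark. In the first, labelled 129 mixed for strain, wild-type (WT) mice were compared with SIRT6 knockout (KO) mice, and in the second, labelled C57BL/6, WT mice were compared with SIRT1 KO mice. Per the labels both knockouts are liver-specific, so the non-hepatic cells of the organ are not stated to lack the gene; the promoter driving the deletion, the age and the sex are not given. Livers were taken every 4 h from zeitgeber time (ZT, hours after lights on) 0 to 20, with 3 arrays for each genotype and time, which makes 24 groups and 72 arrays. The labels number the arrays of a group but do not say whether they are separate animals, so p-values measure the spread between these arrays. SIRT6 and SIRT1 are NAD-dependent protein deacylases.

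Cells sense foreign or misplaced nucleic acid with receptors such as RIG-I and MDA5, which leads to secretion of type I interferons, while activated lymphocytes secrete interferon gamma. Both kinds of interferon act through JAK kinases and STAT factors: type I interferon drives a complex with STAT2 and IRF9 that binds the interferon-stimulated response element (ISRE), and the gamma-activated site (GAS) is the element best known from the interferon gamma response. The products block virus replication, attract lymphocytes and raise antigen presentation, and in liver they are made by hepatocytes as well as by resident macrophages, the Kupffer cells.

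The letters of these response elements can be looked for in the genes' promoters. RefSeq windows of 250 bases before to 50 bases after the start site (GRCm38.p6) were found for 30 of the 39 genes. GAAA followed after any 2 bases by GAAA, the core of an ISRE, occurred on either strand in 16 of the 30 windows (53.3%) and in 3.99% of the 27025 genes with a window. The letters TTCNNNGAA, the core of a GAS, occurred in 8 of the 30 (26.7%) and in 9.55% of all genes, and the clock factors' E-box CACGTG in 0 of the 30 and in 8.09% of all genes. Matches of different motifs may overlap in a window, and a match describes these letters only. The 6 sequences below, each the 250 bases before the start, carry the ISRE core in capitals and were chosen because their genes recur in the results: Isg15, Ifit1 and Rsad2 for the antiviral effectors, Gbp7 for its daily rhythm, and Igtp and Cxcl10 for their spread between arrays. In Isg15 the capitals are 3 overlapping matches that run from 78 to 57 bases before the start, in Ifit1 they are 2 matches, and the others have 1 each.
Isg15, chr4:156200819-156201068, minus strand: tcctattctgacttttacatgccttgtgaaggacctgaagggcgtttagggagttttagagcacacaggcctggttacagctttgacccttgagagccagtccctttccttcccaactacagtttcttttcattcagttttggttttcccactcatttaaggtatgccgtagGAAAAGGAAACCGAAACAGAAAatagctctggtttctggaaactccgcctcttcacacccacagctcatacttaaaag
Ifit1, chr19:34640639-34640888, plus strand: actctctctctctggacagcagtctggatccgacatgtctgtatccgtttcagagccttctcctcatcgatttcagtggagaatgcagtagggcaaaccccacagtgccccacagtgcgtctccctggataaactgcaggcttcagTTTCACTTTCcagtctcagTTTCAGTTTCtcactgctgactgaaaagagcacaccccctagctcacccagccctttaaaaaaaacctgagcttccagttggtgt
Rsad2, chr12:26456453-26456702, minus strand: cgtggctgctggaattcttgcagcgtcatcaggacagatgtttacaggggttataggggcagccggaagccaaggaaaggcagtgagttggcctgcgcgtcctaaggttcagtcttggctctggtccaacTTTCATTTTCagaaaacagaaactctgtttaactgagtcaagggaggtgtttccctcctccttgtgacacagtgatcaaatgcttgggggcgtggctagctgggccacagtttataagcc
Gbp7, chr3:142530086-142530335, plus strand: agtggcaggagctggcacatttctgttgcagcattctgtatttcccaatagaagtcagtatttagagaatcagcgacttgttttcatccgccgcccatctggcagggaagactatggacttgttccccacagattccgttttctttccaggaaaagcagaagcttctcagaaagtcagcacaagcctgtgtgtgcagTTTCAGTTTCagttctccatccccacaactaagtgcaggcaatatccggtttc
Igtp, chr11:58199306-58199555, plus strand: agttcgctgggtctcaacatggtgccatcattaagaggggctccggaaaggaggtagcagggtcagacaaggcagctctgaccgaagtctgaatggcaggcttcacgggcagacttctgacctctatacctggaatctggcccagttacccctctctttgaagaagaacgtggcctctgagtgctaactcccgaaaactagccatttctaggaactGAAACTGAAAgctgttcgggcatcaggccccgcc
Cxcl10, chr5:92348890-92349139, minus strand: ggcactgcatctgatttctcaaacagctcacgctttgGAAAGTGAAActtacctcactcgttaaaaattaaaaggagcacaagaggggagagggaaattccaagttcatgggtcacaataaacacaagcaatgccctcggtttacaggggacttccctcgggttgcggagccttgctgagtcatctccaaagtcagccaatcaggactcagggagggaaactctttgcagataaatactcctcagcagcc
The core stood 34 bases before the start in Igtp, 53 in Gbp7, 120 in Rsad2 and 213 in Cxcl10. It read GAAA to GAAA in the direction of the gene in Isg15, Igtp and Cxcl10 and on the opposite strand in Ifit1, Rsad2 and Gbp7. Some members are also neighbours on the chromosome: in the order of the GRCm38.p6 annotation, 0 coding genes lay between Rsad2 and Cmpk2, between Psmb9 and Tap1, between Tap1 and Psmb8, between Ifit2 and Ifit3, between Oasl2 and Oasl1 and between Gbp7 and Gbp3, and 1 between Cxcl9 and Cxcl10.

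The arrays were alike in brightness, with median intensities between 43.9 and 53.8, and arrays of a group correlated at no less than 0.952 (SIRT6 cohort) or 0.974 (SIRT1 cohort). The hepatocyte genes Alb, Ttr, Apoa1 and Cps1 were in the top percent of all genes, as the label liver implies. The targeted genes did not check the labels: Sirt6 was 7.89 ± 0.10 (SD, n = 18) on arrays labelled SIRT6 KO and 7.32 ± 0.18 (SD, n = 18) on their WT arrays, which is higher, and Sirt1 was 8.74 ± 0.11 (SD, n = 18) on arrays labelled SIRT1 KO and 8.74 ± 0.18 (SD, n = 18) on their WT arrays. Whether these probes fall in a deleted exon could not be told from the labels, so KO below means the arrays labelled KO.

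The main feature of these genes was how much they differed between arrays of the same genotype and time. In the SIRT6 cohort the SD between arrays of a group, pooled over the 12 groups, had a median of 0.61 over the 35 genes with a range from 0.16 to 1.46, while the median over all 13308 genes was 0.17. In all, 28 of the 35 lay above the 90th percentile of all genes and 21 above the 95th. The SIRT1 cohort had a median of 0.25, with a range from 0.15 to 0.53, against 0.16 for all genes, and 17 of the 35 lay above the 90th percentile. The SD was larger in the SIRT6 than in the SIRT1 cohort for 33 of the 35 genes, by a median ratio of 2.14 against 1.099 over all genes, and it was more than 2 times as large for 22 of them, against 10.7% of all genes. The exceptions were Ifit3 and Stat2. These are descriptions, with no test of the difference in spread, and the cohorts differ in strain label as well as in the targeted gene, which cannot be told apart here. Both genotypes showed it: the median SD was 0.65 in WT and 0.57 in KO arrays of the SIRT6 cohort, and 0.26 and 0.24 in those of the SIRT1 cohort. In bulk liver, more cells of a type and more RNA per cell cannot be told apart.

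**Figure D1:**
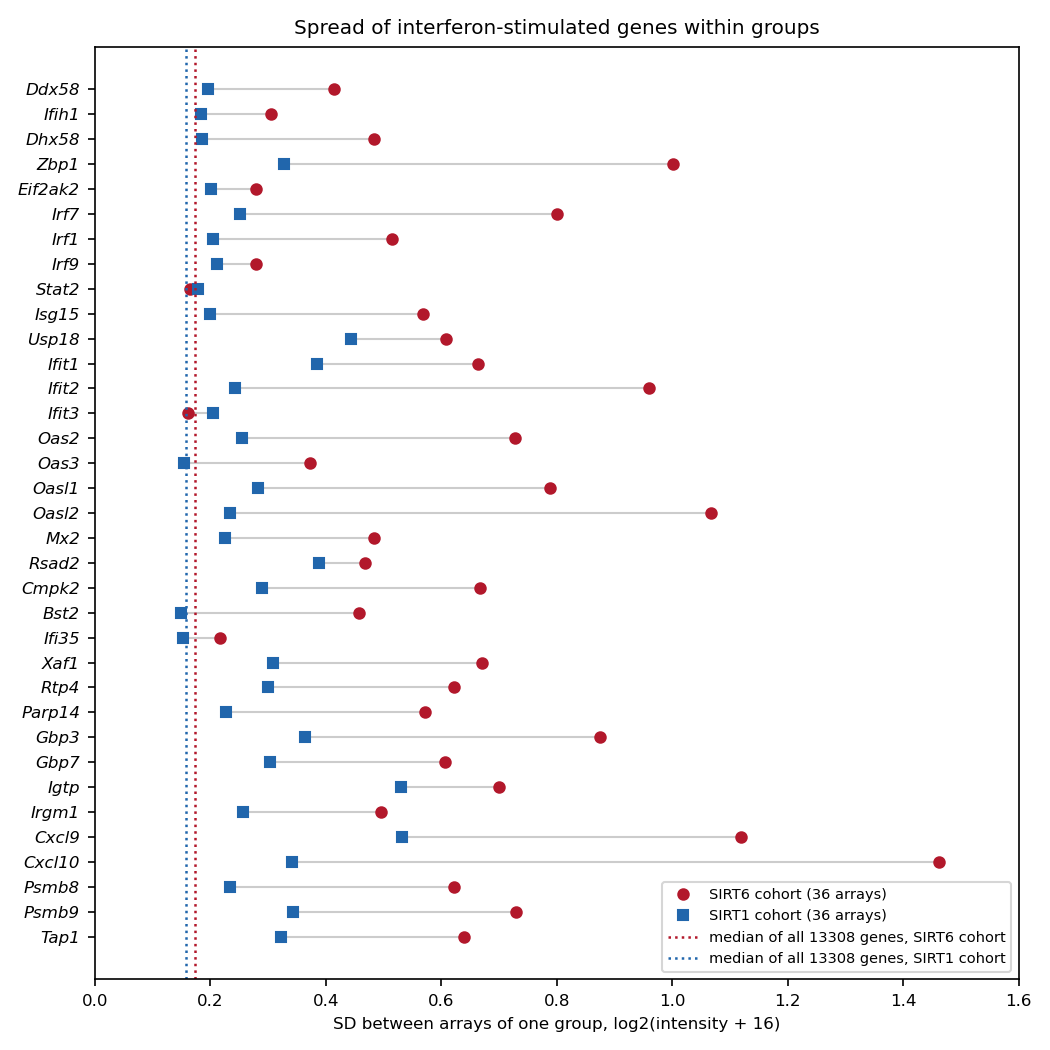
SD between arrays of the same genotype and time (x axis, log2(intensity + 16)) for each of the 35 interferon-stimulated genes tested (y axis), with 1 point per cohort and dotted lines at the median of all genes. The SIRT6 cohort lies to the right of the SIRT1 cohort for 33 of the 35 genes, with Cxcl10 at 1.46 the farthest.

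The sensors came first in the pathway and, except Zbp1, spread less in the SIRT6 cohort than the median interferon-stimulated gene tested. Zbp1, a sensor of left-handed nucleic acid that can trigger cell death, had an SD of 1.00 in the SIRT6 and 0.33 in the SIRT1 cohort. Among the SIRT6-cohort groups its arrays spanned least in KO at ZT8, 0.94, and most in KO at ZT0 and WT at ZT12. The 3 KO arrays at ZT0 read 7.28, 9.14 and 10.02, and the WT arrays at ZT12 read 9.82, 8.11 and 7.28. These widest groups each held both a high and a low array of the gene. Its 18 WT arrays of the SIRT6 cohort ran from 7.16 to 9.95 with a median of 8.75. Ddx58, which encodes RIG-I, Ifih1, which encodes MDA5, and Dhx58, which encodes their regulator LGP2, had SDs of 0.41, 0.30 and 0.48 in the SIRT6 cohort. Eif2ak2, the kinase PKR that stops translation on double-stranded RNA, had 0.28. Of these, Ddx58 and Dhx58 lay above the 90th percentile of all genes, which was 0.397. The same 4 genes lay between 0.18 and 0.20 in the SIRT1 cohort.

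Among the transcription factors, Irf7, the factor that amplifies type I interferon production, differed most between arrays of a group. SIRT6 KO arrays at ZT0 read 7.88, 8.81 and 10.54, WT arrays at ZT8 read 10.28, 8.62 and 10.86, and KO arrays at ZT8 read 9.17, 9.72 and 9.69. Replicate 3 was the high array in the first 2 of these groups, and the third group was even. Irf1, a factor induced by interferon gamma, had an SD of 0.52 in the SIRT6 cohort. Stat2 and Irf9, subunits of the complex that binds the ISRE, had 0.16 and 0.28, so that Stat2 varied about as much as the median gene.

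Of the antiviral effectors, Oasl2, a 2'-5'-oligoadenylate synthetase-like protein, had an SD of 1.07 in the SIRT6 and 0.23 in the SIRT1 cohort. Its SIRT6-cohort WT arrays at ZT8 read 8.73, 6.95 and 9.47, and those at ZT12 read 8.98, 6.22 and 6.20. The 18 WT arrays of the SIRT1 cohort ran from 6.20 to 7.14 with a median of 6.68, a span smaller than that of either group just given. Oasl1, which holds back Irf7 translation, had 0.79, with WT arrays at ZT8 at 9.15, 7.43 and 10.03. Oas2, an oligoadenylate synthetase, had 0.73, and Oas3, whose product makes the activator of RNase L, had 0.37.

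The IFIT proteins, RNA-binding antiviral proteins of which IFIT1 recognises caps without the host's methylation, did not vary alike. Ifit2 had an SD of 0.96 in the SIRT6 cohort, with WT arrays at ZT12 at 8.26, 5.87 and 5.30 and WT arrays at ZT20 at 6.03, 5.35 and 5.83. The first array of the ZT12 group stood alone and the ZT20 group was even. Ifit1 had an SD of 0.66 in the SIRT6 and 0.38 in the SIRT1 cohort, where its KO arrays at ZT0 read 7.50, 8.50 and 7.47. Ifit3 had 0.16, with the 18 WT arrays from 6.85 to 7.34 with a median of 7.16, and was the least variable of the 35 in the SIRT6 cohort. Copies with near-identical sequence exist in the IFIT, OAS and GBP families, and cross-hybridisation of their probes was not tested.

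Isg15, the ubiquitin-like protein attached to new proteins during infection, had an SD of 0.57 in the SIRT6 and 0.20 in the SIRT1 cohort, and Usp18, the protease that removes it, had 0.61 and 0.44. Usp18 was 1 of the more variable members of the SIRT1 cohort, with WT arrays at ZT12 at 7.81, 7.58 and 9.11. Mx2, a dynamin-like GTPase against viruses, had 0.48 and 0.23. The remaining 7 effectors lay between 0.22 and 0.67 in the SIRT6 cohort. Among them Xaf1, a pro-apoptotic factor, had 0.67, Cmpk2, a mitochondrial nucleotide kinase, 0.67, Rsad2, which encodes viperin and makes a chain-terminating nucleotide, 0.47, and Bst2, the tether that keeps budding viruses on the cell surface, 0.46. Bst2 had the lowest SD of the 35 in the SIRT1 cohort, 0.15, and Rsad2 was among the higher ones at 0.39, with WT arrays at ZT4 at 7.50, 8.36 and 8.91.

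The chemokines had the largest spreads of the SIRT6 cohort. Cxcl10, a chemokine that draws activated T cells through CXCR3, had the largest SD of the 35 in the SIRT6 cohort, 1.46. Its WT arrays at ZT12 read 8.95, 5.96 and 5.04, its WT arrays at ZT8 9.99, 7.74 and 10.06, and its KO arrays at ZT8 6.45, 9.71 and 9.24. Within the first group, the widest of the SIRT6 cohort for Cxcl10, the highest array was 15.0 times the lowest on this scale. In the narrowest, KO at ZT20, it was 3.78 times. The 3 groups given by array overlapped. The SD in the SIRT1 cohort was 0.34, with the WT arrays from 5.39 to 6.77 with a median of 5.93. Cxcl9, a second ligand of CXCR3, had SDs of 1.12 and 0.53, and in the SIRT6 cohort its WT arrays at ZT12 read 12.15, 9.62 and 8.97 while those at ZT8 read 11.14, 11.45 and 11.45. The ZT8 group was among the most even for Cxcl9 and was not so for Cxcl10.

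The GTPases that attack the vacuoles of intracellular microbes followed. The SIRT6 KO arrays of Gbp3 at ZT0 read 6.47, 8.79 and 8.94 and its WT arrays at ZT20 8.53, 6.38 and 8.08, so that 1 array was low in each. Gbp3 had SDs of 0.88 and 0.36 in the SIRT6 and SIRT1 cohorts, Gbp7 0.61 and 0.30, Igtp 0.70 and 0.53, and Irgm1 0.50 and 0.26. Igtp was thus as variable as Cxcl9 in the SIRT1 cohort, where its WT arrays at ZT12 read 7.81, 8.02 and 9.58. The immunoproteasome subunits Psmb8 and Psmb9 and the peptide transporter Tap1, which prepare and load peptides for class I molecules, had 0.62, 0.73 and 0.64 in the SIRT6 cohort. For Psmb9 the SIRT6 KO arrays at ZT12 read 9.74, 7.97 and 9.13 and the WT arrays at ZT20 9.04, 7.44 and 9.11, replicate 2 being the low array in both.

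The genes moved together from array to array. After removing each group's mean, the correlation between pairs of the 35 genes over the 36 arrays of the SIRT6 cohort had a median of 0.80 over 595 pairs, and 541 pairs were above 0.5 and 0 below 0. In the SIRT1 cohort the median was 0.50, with 300 pairs above 0.5 and 47 below 0. These correlations share arrays and are given as a description. The closest pairs in the SIRT6 cohort were Psmb8 with Psmb9, Psmb9 with Tap1, and Oasl2 with Xaf1, each at 0.98, and in the SIRT1 cohort Ifit1 with Cmpk2 at 0.94, Xaf1 with Rtp4 at 0.91 and Ifit1 with Rsad2 at 0.90. Rsad2 and Bst2 were the most opposed, at -0.41 in the SIRT1 cohort. Ifit3 had the lowest median correlation with the others in the SIRT6 cohort, 0.38, and had 0.01 in the SIRT1 cohort. Oas3 had the lowest in the SIRT1 cohort, -0.04. In the SIRT6 cohort Oas3 had 0.65, above Igtp with 0.615. In the SIRT1 cohort the 9 GTPase, chemokine and antigen processing genes held together more tightly, with a median of 0.75, than the 22 antiviral and sensor genes, with 0.42, while in the SIRT6 cohort the medians were 0.89 and 0.85. Both sets correlated with each other at medians of 0.73 in the SIRT6 and 0.52 in the SIRT1 cohort. With each of the 35 genes' residuals scaled by its SD, their first component held 78.0% of the variance in the SIRT6 and 51.6% in the SIRT1 cohort. For all genes the residuals were not scaled, and the first component held 52.6% and 17.99%. The shares of the 35 and of all genes are therefore not comparable.

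Averaged over the 35 genes, each array's deviation from its cohort's median ran from -0.89 to 0.95 in the SIRT6 cohort, a 3.58-fold span, and from -0.36 to 0.47 in the SIRT1 cohort, a 1.78-fold span. The lowest SIRT6-cohort array was WT at ZT12, replicate 3, with 35 of 35 genes below their median, and the highest was WT at ZT8, replicate 3, with 34 of 35 above. The SIRT6 KO group at ZT0 held both a low array, replicate 1 at -0.82, and a high one, replicate 3 at 0.74. In 6 of the 12 SIRT6-cohort groups the 3 arrays spanned more than 1, and in 0 of the 12 SIRT1-cohort groups. High and low arrays occurred in both genotypes: the mean deviation was -0.01 ± 0.59 (SD, n = 18) in WT and -0.04 ± 0.46 (SD, n = 18) in KO arrays of the SIRT6 cohort. Leaving out 1 array at a time gave median SDs from 0.58 to 0.62 (SIRT6 cohort) and from 0.23 to 0.26 (SIRT1 cohort).

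**Figure D2:**
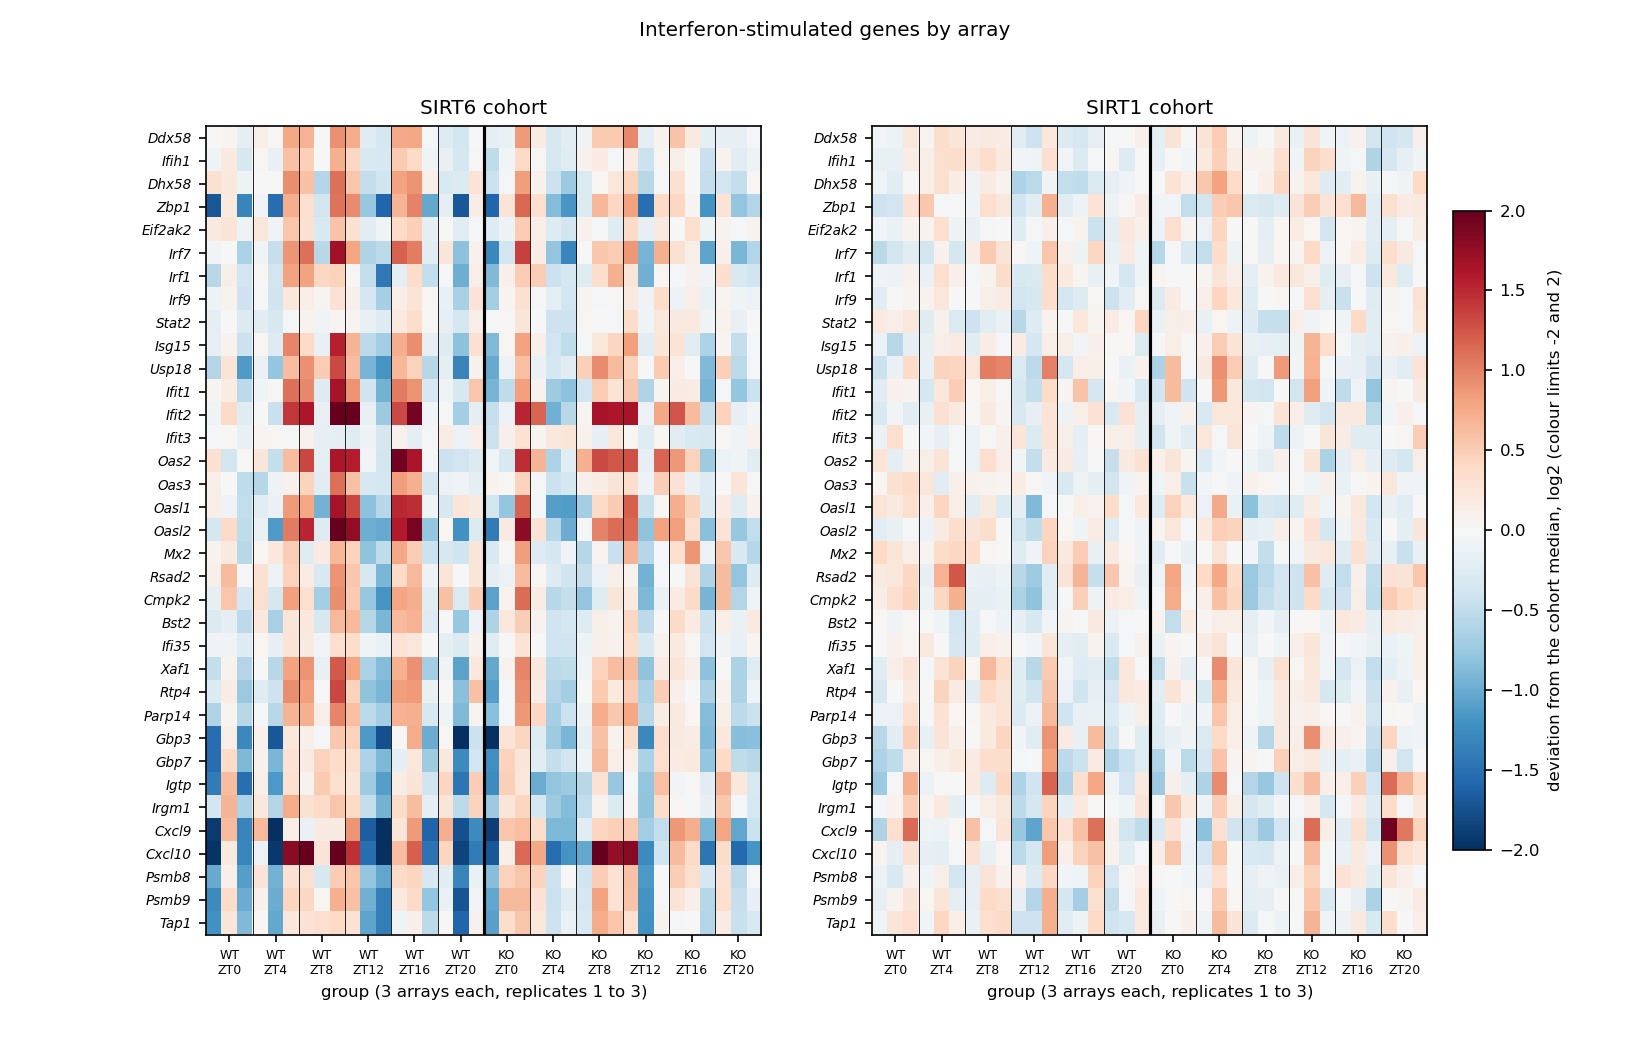
Deviation of each of the 35 genes (rows) from its cohort median, in log2 units with colour limits of -2 and 2, on the 36 arrays of each cohort (columns, in groups of 3, WT left and KO right of the thick line). Whole columns of the SIRT6 cohort are red or blue within single groups, while the SIRT1 cohort is paler.

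Markers of other cells moved with these genes in the SIRT6 cohort. The mean of 14 Kupffer cell and macrophage markers correlated with the 35-gene mean at 0.90 over the 36 arrays of the SIRT6 cohort and at 0.66 over those of the SIRT1 cohort, group means removed. In the SIRT6 cohort 12 of the 14 were above 0.5, against 29.9% of all genes outside the 35. Among the 12 were the complement component C1qa (0.92), the macrophage antigen Adgre1 (0.93) and the phosphatidylserine receptor Timd4 (0.91). The Kupffer cell lectin Clec4f (-0.05) and the haemoglobin scavenger receptor Cd163 (-0.40) did not follow. The macrophage mean ran from 7.60 to 10.05 in WT and from 7.96 to 10.33 in KO arrays of the SIRT6 cohort, and from 7.78 to 9.10 and from 7.40 to 8.87 in the SIRT1 cohort. None of these markers was at 0.

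The 6 lymphocyte markers tested of 11 correlated at 0.79 in the SIRT6 and 0.03 in the SIRT1 cohort. Their mean ran from 5.97 to 8.02 in WT and from 6.06 to 7.59 in KO arrays of the SIRT6 cohort. In that cohort 5 of the 6 markers were above 0.5, against 29.9% of all genes outside the interferon-stimulated genes tested. The 8 stellate and endothelial markers correlated at 0.88 and 0.12, with means from 8.47 to 9.22 in WT and from 8.57 to 9.31 in KO of the SIRT6 cohort. The 7 hepatocyte markers correlated at -0.80 and 0.01, with means from 12.53 to 12.80 and from 12.44 to 12.78. The 20 acute phase genes tested of 22 correlated at 0.71 and 0.54, the 15 core clock genes tested of 17 at -0.70 and 0.12, and the 1 plasmacytoid dendritic cell marker tested of 4 at 0.79 and 0.14. All 6 neutrophil markers lay below the filter. A shift across the array was also present: the mean of all 13308 genes correlated at 0.69 in the SIRT6 and 0.48 in the SIRT1 cohort, and 9.52% of the other genes in the SIRT6 cohort, against 0.158% in the SIRT1 cohort, exceeded 0.8. The part of cell content and of array-wide shifts in the spread of the interferon-stimulated genes was not tested.

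**Figure D3:**
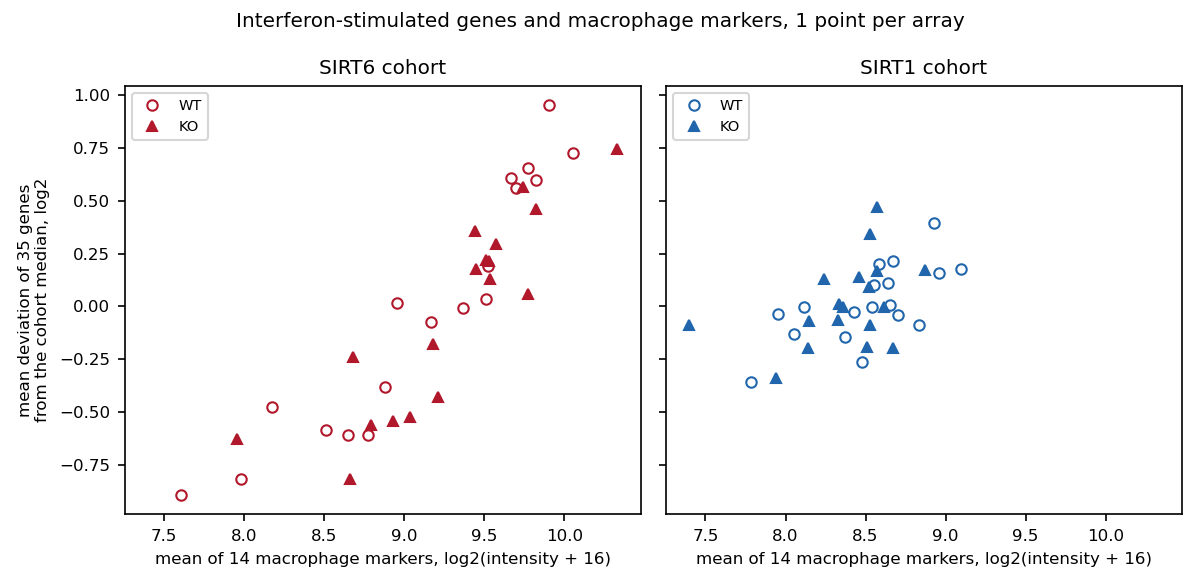
Mean deviation of the 35 genes from the cohort median (y axis, log2) against the mean of 14 macrophage markers (x axis, log2(intensity + 16)), 1 point per array, WT open and KO filled. The SIRT6 cohort's points lie between -0.89 and 0.95 and tend to be higher at higher marker means, with scatter. The SIRT1 cohort's points stay between -0.36 and 0.47.

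Genes upstream and downstream in the pathway were followed from lists. The 5 interferon receptor chains tested of 6 correlated with the 35 genes at 0.89 in the SIRT6 and 0.56 in the SIRT1 cohort, the 4 kinases and STATs tested at 0.87 and 0.67, the 11 upstream sensing genes tested of 13 at 0.91 and 0.74, and the 7 inhibitors tested of 8 at 0.94 and 0.76. A further 36 interferon-induced genes tested of 46 correlated at 0.99 and 0.95. The interferons themselves were mostly dim: 7 of 20 were tested, Ifnb1 and Ifng were below the filter, and the 7 correlated at -0.55 and -0.44. Outside the 39 genes, those whose residuals were most like the 35-gene mean, ranked by the smaller of the correlations in the SIRT6 and SIRT1 cohorts over 36 arrays each, were Rnf213 at 0.96 and 0.89, Ddx60 at 0.92 and 0.88, Psmb10 at 0.93 and 0.86, Gm12250 at 0.88 and 0.86, Samhd1 at 0.91 and 0.86, Uba7 at 0.97 and 0.84, Aif1 at 0.91 and 0.84, Calhm6 at 0.83 and 0.83, Tnfrsf14 at 0.94 and 0.82, and Parp12 at 0.98 and 0.81. There were 14 genes above 0.8 in both cohorts.

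Averaged over the 6 times, no interferon-stimulated gene passed the test between SIRT6 KO and WT livers, and the intervals were wide. In limma's moderated test with Benjamini-Hochberg adjustment over all genes, 0 of the 35 passed an adjusted p of 0.05, where 6.61% of all genes tested did, and 1 of the 35 had an unadjusted p under 0.05, against 19.3% of all genes. The differences ran from -0.44 for Ifit1 to 0.41 for Cxcl9, with 16 means higher and 19 lower in KO. The median difference was -0.03 over the 35 and 0.00 over all genes, and the median SE was 0.19 over the 35 and 0.06 over all genes.

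Ifit1 had the smallest adjusted p of the 35. Its level was 7.89 ± 0.55 (SD, n = 18) in KO and 8.33 ± 0.70 (SD, n = 18) in WT arrays, a difference of -0.44 ± 0.21 (SE) with a 95% interval of -0.87 to -0.01 and an adjusted p of 0.244. Cxcl9 differed by 0.41 ± 0.35 (SE), with an interval of -0.31 to 1.14 and an adjusted p of 0.61. The KO and WT arrays overlapped for both genes, and a difference of 1 log2 unit in Cxcl9 lay inside the interval. For Stat2 and Ifit3, the least variable members, the intervals were -0.04 to 0.18 and -0.08 to 0.15. Psmb8, Psmb9 and Tap1 had KO means higher by 0.25 ± 0.20 (SE), 0.25 ± 0.23 (SE) and 0.24 ± 0.20 (SE), with adjusted p-values of 0.562, 0.642 and 0.61. The macrophage marker means were higher in KO for 13 of the 14 markers, with 0 passing the test and a median difference of 0.17, and their part in these values was not tested. Irf7 differed by -0.31 ± 0.25 (SE), Rsad2 by -0.29 ± 0.15 (SE) and Cmpk2 by -0.27 ± 0.21 (SE), all with adjusted p-values of 0.29 or more.

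In the SIRT1 cohort, 1 of the 35 genes passed, against 2.27% of all genes tested (1.06% called higher in KO), a share near that of all genes. Dhx58, whose product LGP2 modulates signalling by MDA5 and RIG-I, rose in SIRT1 KO livers. At ZT12 the WT arrays read 6.83, 6.92 and 7.39 and the KO arrays 7.52, 7.68 and 7.20. At ZT16 they read 6.97, 6.95 and 7.17 in WT and 7.24, 7.54 and 7.31 in KO. At ZT4, where the gene was highest, they read 7.59, 7.78 and 7.61 in WT and 7.99, 8.27 and 7.82 in KO. The 3 KO arrays lay above the 3 WT arrays at ZT4 and ZT16 and overlapped them at ZT0, ZT8, ZT12 and ZT20. The times given by array had the largest differences, and those at ZT0, ZT8 and ZT20 were 0.24, 0.12 and 0.18. The mean difference over the 6 times was 0.28 ± 0.06 (SE), 1.21-fold, with a 95% interval of 0.15 to 0.40 and an adjusted p of 0.0173, and 17 of 18 KO arrays were above the WT mean of their time. The call was kept when any 1 of the 36 arrays was left out, and it was lost when the spread was estimated from all 72 arrays, with an adjusted p of 0.239. The macrophage marker means were lower in SIRT1 KO for 13 of the 14 markers, with 0 passing and a median difference of -0.10, and their part in the Dhx58 difference was not tested.

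Mx2 showed the next smallest p in the SIRT1 cohort and did not pass. Its level was 6.27 ± 0.22 (SD, n = 18) in KO and 6.49 ± 0.23 (SD, n = 18) in WT arrays, a difference of -0.23 ± 0.07 (SE) with an adjusted p of 0.0844, and 15 of 18 KO arrays were below the WT mean of their time. It passed when 1 of 2 arrays was left out, with an adjusted p of 0.049 without WT at ZT16, replicate 3, and of 0.042 without KO at ZT16, replicate 2. The other 33 genes lay between -0.11 and 0.11, and the median SE over the 35 was 0.08. At single times, with the adjustment made over genes and times together, 0 of the 35 passed in either cohort, against 0.473% and 0% of all genes in the SIRT6 and SIRT1 cohorts, and the smallest adjusted p was 0.596 in the SIRT6 and 0.335 in the SIRT1 cohort. An unadjusted p under 0.05 occurred in 2 of 210 single-time tests in the SIRT6 cohort, against 7.90% over all genes, and in 13 of 210 in the SIRT1 cohort, against 8.22%.

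**Figure D4:**
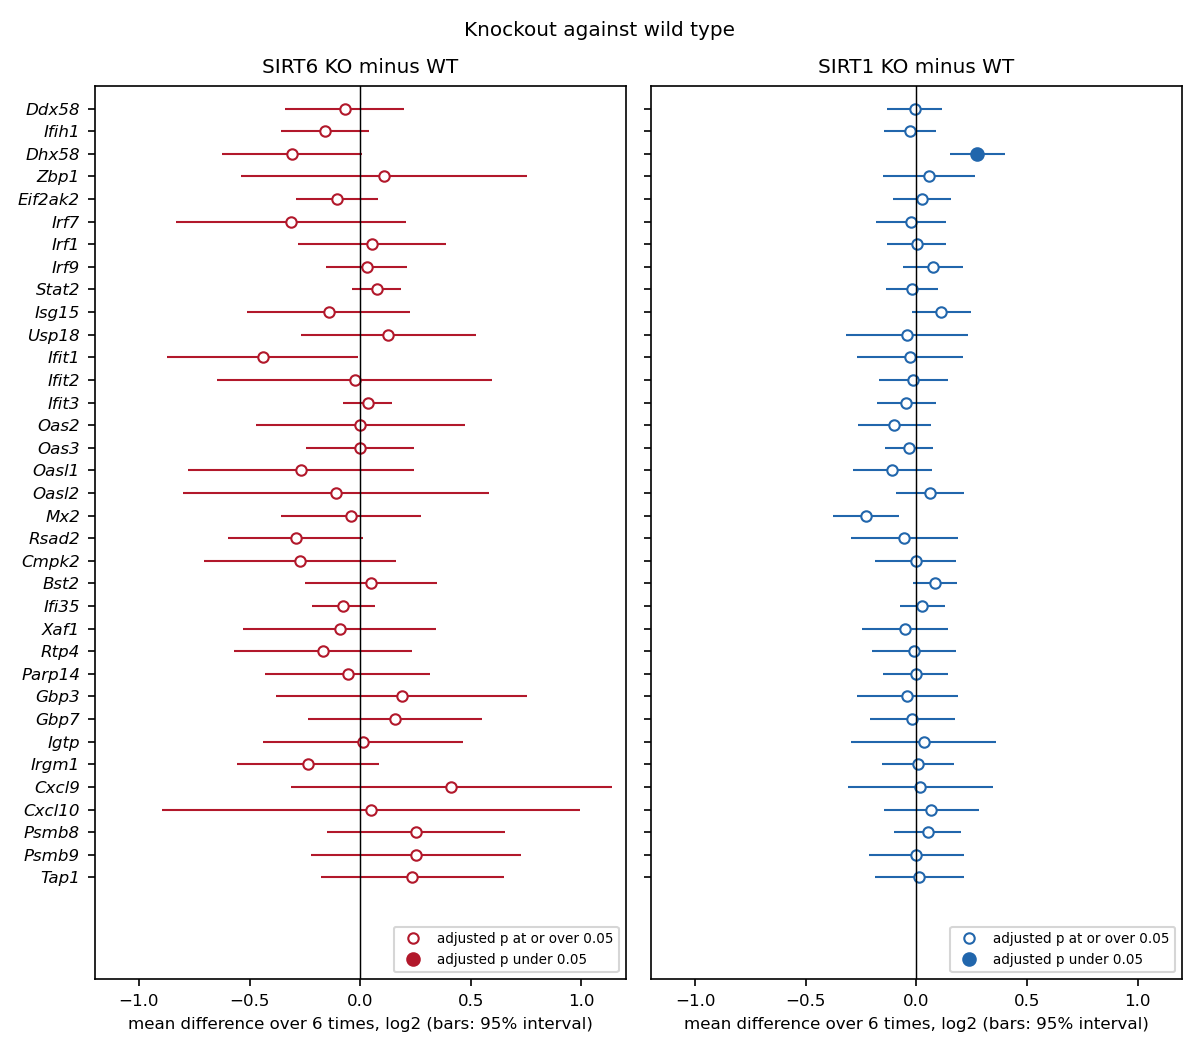
KO minus WT averaged over the 6 times (x axis, log2) with its 95% interval for each of the 35 genes (y axis) in the SIRT6 cohort (left) and the SIRT1 cohort (right), filled where the adjusted p is under 0.05. Intervals are wide in the SIRT6 cohort, where Cxcl10 runs from -0.90 to 1.00, and Dhx58 in the SIRT1 cohort is the 1 filled point.

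Dhx58 was also the 1 gene of the 35 whose KO effect differed between the cohorts in a single limma fit of all 72 arrays, where 5.76% of all genes passed. In the SIRT6 cohort it was 7.51 ± 0.40 (SD, n = 18) in KO and 7.82 ± 0.52 (SD, n = 18) in WT arrays, a difference of -0.31 ± 0.15 (SE) that did not pass, with an adjusted p of 0.275. The SIRT6 effect minus the SIRT1 effect was -0.58 ± 0.17 (SE), with an adjusted p of 0.027. Of the companion lists, 0 of the receptor chains, kinases and STATs or upstream sensing genes passed in either cohort. Nlrc5, the transactivator of class I genes, rose by 0.43 ± 0.12 (SE) in SIRT6 KO livers with an adjusted p of 0.023, the 1 of 36 further interferon-induced genes to pass there, where 6.61% of all genes did. Socs1, a feedback inhibitor of JAK kinases, fell by 0.23 in SIRT1 KO livers with an adjusted p of 0.040, the 1 of 7 inhibitors to pass there, where 2.27% of all genes did. Of the 20 acute phase, 7 hepatocyte and 15 clock genes, Orm3 alone passed in SIRT6 KO livers, where it rose by 1.53, and in SIRT1 KO livers Apcs fell by 0.41, Serpina1a fell by 0.12 and the clock output factor Hlf rose by 0.21.

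Time of day was visible for some of the genes in the SIRT1 cohort. A 24 h cosine was called in 8 of the 35 genes in SIRT1-cohort WT livers, a share near the 18.3% of all genes. In SIRT1 KO livers it was called in 3 of the 35, against 23.2% of all genes, a lower share that was not tested. In the SIRT6 cohort it was called in 0 of the 35 in WT, against 10.1% of all genes, and in 0 of the 35 in KO, against 10.6%, with 0 unadjusted p-values under 0.05 in each. The median peak-to-trough amplitude of the 35 was nevertheless 0.50 in SIRT6-cohort WT and 0.36 in SIRT6 KO, against 0.29 and 0.31 in SIRT1-cohort WT and KO. Over all genes these medians were 0.23, 0.20, 0.21 and 0.22. The amplitudes of the 35 stood beside within-group SDs with medians of 0.61 and 0.25.

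The sensors with a called rhythm peaked in the light phase. Of all genes called, 58.0% in SIRT1-cohort WT and 31.8% in SIRT1 KO peaked from ZT12 to ZT24, the dark phase. Ifih1 had a peak-to-trough amplitude of 0.42, a fitted peak at ZT6.56 and an adjusted p of 0.013 in WT and a peak-to-trough amplitude of 0.52, a fitted peak at ZT7.17 and an adjusted p of 0.014 in KO. Its WT arrays read 9.42, 9.62 and 9.64 at ZT4 and 9.23, 9.02 and 9.27 at ZT16, and the 2 groups did not overlap. Dhx58 had a peak-to-trough amplitude of 0.57, a fitted peak at ZT3.33 and an adjusted p of 0.0062 in WT and a peak-to-trough amplitude of 0.51, a fitted peak at ZT3.79 and an adjusted p of 0.029 in KO, and its ZT4 and ZT16 arrays, given above, did not overlap in either genotype. Ddx58 had a peak-to-trough amplitude of 0.42, a fitted peak at ZT3.87 and an adjusted p of 0.025 in WT and was not called in KO.

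Other called genes peaked at other times. Stat2 had a peak-to-trough amplitude of 0.55, a fitted peak at ZT20.74 and an adjusted p of 0.0045 in WT, with arrays at 8.83, 9.01 and 9.10 at ZT8 and 9.41, 9.29 and 9.68 at ZT20. Cmpk2 had a peak-to-trough amplitude of 0.72, a fitted peak at ZT23.96 and an adjusted p of 0.021 in WT and a peak-to-trough amplitude of 0.79, a fitted peak at ZT23.22 and an adjusted p of 0.028 in KO, with WT arrays at 7.71, 7.93 and 8.04 at ZT0 and 6.96, 6.79 and 7.38 at ZT12. The groups just given did not overlap for either gene. These groups, like those of Ifih1 and Dhx58, lie near the fitted peak and trough of called genes. Their separation therefore adds no support to the calls. Oasl1 had a peak-to-trough amplitude of 0.57, a fitted peak at ZT23.51 and an adjusted p of 0.024 in WT. Gbp7 had a peak-to-trough amplitude of 0.81, a fitted peak at ZT8.60 and an adjusted p of 0.0074, and Irf7 had a peak-to-trough amplitude of 0.58, a fitted peak at ZT12.08 and an adjusted p of 0.025, both in WT. Gbp7 thus peaked in the light phase, Irf7 near lights off, Stat2 in the dark phase, and Oasl1 and Cmpk2 near lights on. A difference in rhythm between genotypes was called for 0 of the 35 with SIRT6, against 0.00751% of all genes, and for 0 of the 35 with SIRT1, against 0%, and 0 had an unadjusted p under 0.05 in either, against 8.25% and 7.25% of all genes. A call in 1 genotype and not in the other is therefore not shown to be a difference. The Cmpk2 call in WT was lost without replicate 1 or 2 at ZT12, with adjusted p-values of 0.058 and 0.064, and in KO without replicate 2 at ZT0, 3 at ZT8 or 1 at ZT12, at 0.076, 0.0504 and 0.0502. The Dhx58 call in KO was lost without replicate 1 or 2 at ZT4 or replicate 1 or 3 at ZT16, with adjusted p-values from 0.059 to 0.090, and the Ifih1 calls were kept throughout. The count in SIRT1 KO was 6 without replicate 2 at ZT12, and the share of all genes in that fit is not given.

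**Figure D5:**
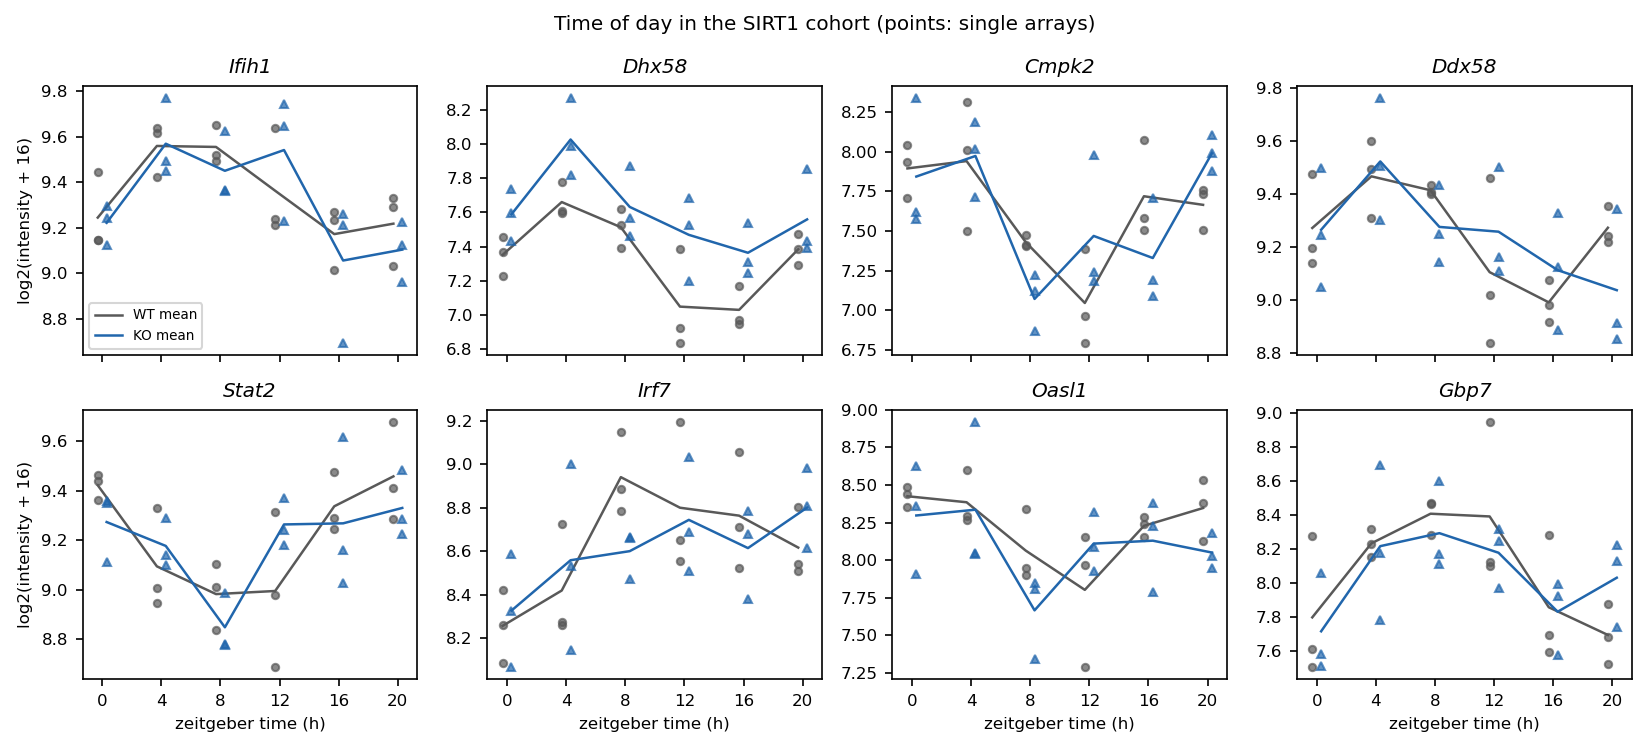
Level (y axis, log2(intensity + 16)) against zeitgeber time (x axis, hours) in the SIRT1 cohort for the 8 genes with a called 24 h cosine in WT, with points for single arrays, lines through the group means, WT grey and KO blue. Ifih1 and Dhx58 are highest at ZT4 and lowest at ZT16 in both genotypes, and the KO line of Dhx58 lies above the WT line at all 6 times.

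Between the WT livers of the cohorts, 34 of the 35 genes tested stood higher in the SIRT6 cohort, against 31.6% of all genes. The median difference was 0.71 over the 35 and -0.08 over all genes. Examples were Igtp at 10.33 ± 0.77 (SD, n = 18) against 8.45 ± 0.51 (SD, n = 18), Xaf1 at 8.82 ± 0.71 (SD, n = 18) against 7.20 ± 0.34 (SD, n = 18), while Rsad2 alone stood lower, at 7.59 ± 0.43 (SD, n = 18) against 7.76 ± 0.49 (SD, n = 18). The mean of the 14 macrophage markers was also higher, at 9.11 ± 0.72 (SD, n = 18) in WT of the SIRT6 against 8.52 ± 0.36 (SD, n = 18) in WT of the SIRT1 cohort, and that of the 20 acute phase genes at 11.27 ± 0.38 (SD, n = 18) against 10.67 ± 0.19 (SD, n = 18). Their part in these levels was not tested. Strain label, housing and any separate handling of the cohorts cannot be told apart, and no test was made.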

How the data were processed

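Total RNA of 72 mouse liver samples was hybridised to Affymetrix arrays, 1 array per sample. The authors deposited a table of intensity values on a linear scale for 41345 probe sets, made with Affymetrix Expression Console 1.1.1 and PLIER 2.0 per the submitters' processing notes. Neither the settings nor whether the cohorts were normalized together could be read from the labels. GEO's platform annotation gave 1 gene symbol to 23521 probe sets, several to 1814 and none to 16010, and genes were named only from probe sets with 1 symbol.

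Values were used as log2(intensity + 16), with no further normalization. The highest-mean probe set stood for each gene, and the 40% of genes with the lowest mean over the 72 arrays were left out. limma 3.58.1 in R 4.3.3 fitted 12 group means per cohort with a mean-variance trend, and Benjamini-Hochberg adjustment ran over all 13308 genes, for single times over genes and the 6 times together. A 24 h cosine was fitted to each set of 18 arrays with a moderated F test, and a fit of all 72 arrays tested the difference between the KO effects. Spread was the residual SD around group means, and correlations used those residuals. Called means an adjusted p under 0.05. The scripts were tested on simulated data. Genes described by array were those called in any KO contrast, the 8 with the largest SD per cohort, those with a cosine called in 2 or more sets, and those whose SD differed most between cohorts. Outside the members, the 10 genes closest to their mean and the called genes of each companion list were named. Values of other members, named by role, were chosen after they were seen. The groups given by array are examples and include the widest groups of some genes. The members and lists were chosen with earlier results of these data known, and the companion lists come from general knowledge of the pathway.

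Same-numbered WT and KO arrays of a time correlated above 0.1 in 11 of 18 pairs in the SIRT6 cohort and in 6 of 18 in the SIRT1 cohort. In the SIRT6 cohort all were positive at ZT12, ZT16 and ZT20, from 0.10 to 0.74, and of both signs at ZT0, ZT4 and ZT8. These values do not settle whether same-numbered arrays belong together. The main tests did not pair arrays, and a fit with the replicate number as a block is given below. Arrays give no count depth, and their number limits the precision. Alternatives were other normalizations, pseudocounts, filters, array weights, a replicate block, a threshold of 0.01 and leaving out each array in turn.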

Additional observations from a re-analysis of the deposited data

Results flagged for a closer look

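Dhx58, which encodes the RNA helicase LGP2, had KO effects that differed between the cohorts by the test of that difference. The SIRT6 effect minus the SIRT1 effect was -0.58 ± 0.17 (SE) on the log2 scale, with an adjusted p of 0.027 in limma. It was the 1 of 35 genes to pass, where 5.76% of all genes did, a share not above that of all genes. An unadjusted p under 0.05 occurred for 1 of the 35, against 19.6% of all genes. In that fit of all 72 arrays neither effect passed on its own: it was 0.28 with an adjusted p of 0.239 for SIRT1 and -0.31 with 0.101 for SIRT6. In the fits of 1 cohort each, the SIRT1 effect passed (0.0173) and the SIRT6 effect did not (0.275). Strain label and cohort differ along with the targeted gene and cannot be told apart from it. The WT level of Dhx58 was 7.82 ± 0.52 (SD, n = 18) in the SIRT6 cohort and 7.33 ± 0.27 (SD, n = 18) in the SIRT1 cohort.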

How the results depend on the processing

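The number of arrays and, in the SIRT6 cohort, the spread between them limit what can be called. With array weights, which down-weight arrays far from their group, the counts of the 35 genes called for KO against WT were 2 on average and 12 at single times (SIRT6 cohort), against 19.7% and 19% of all genes, 2 and 1 likewise with SIRT1, against 7.84% and 2.67%, and 2 for the difference between the KO effects, against 18.3%. The 24 h cosine was then called for 6 genes in SIRT1 KO, against 26.6% of all genes, as it was with quantile normalization (6, against 25.4%). At a threshold of 0.01 the count for KO against WT in the SIRT1 cohort was 0, against 0.323% of all genes. For the difference it was 0, against 2.2%. For the cosine in SIRT1-cohort WT and KO it was 3 and 0, against 9.09% and 13%. A moderated F over the 6 times called 2 genes in WT and 5 in KO of the SIRT1 cohort, against 9.51% and 16.8% of all genes. A single fit of all 72 arrays called 0 in the SIRT1 cohort, and the share of all genes in that fit is not given. The median SD of the SIRT1 cohort was 0.198 with a pseudocount of 64. The estimation of the array weights stopped with a warning before its convergence tolerance in some fits, so the values with array weights are less certain than the others. The causes were not tested.

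Leaving out 1 array at a time gave 1 to 2 genes for KO against WT in the SIRT1 cohort and 0 to 0 in the SIRT6 cohort. For the cosine it gave 2 to 6 in SIRT1 KO, 7 to 8 in SIRT1-cohort WT and 0 to 1 in SIRT6 KO, the 1 without KO at ZT0, replicate 1. Over all genes, KO against WT called 302 in the SIRT1 cohort, from 150 (without WT at ZT0, replicate 3) to 436 with 1 array left out, 775 with medians centred, 1044 with array weights and 43 at a threshold of 0.01. In the SIRT6 cohort it called 880, 2623 with array weights and 395 at a threshold of 0.01. With array weights Dhx58 and Ifit1 passed in the SIRT6 cohort, at -0.37 with an adjusted p of 0.020 and at -0.54 with 0.011, and Mx2 in the SIRT1 cohort, at -0.21 with 0.038.

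Differences near 0 changed sign without being called: under the alternatives that keep all arrays, for 5 of the 35 genes in the SIRT6 and 20 in the SIRT1 cohort, and with 1 array left out, for 11 and 19. Examples in the SIRT1 cohort were Cxcl9 (-0.00335) and Tap1 (-0.00379) with quantile normalization, and Irf7 (0.0181), Ifit1 (0.0122) and Psmb9 (0.0429) with medians centred. Further examples were Psmb9 (0.00187) with a pseudocount of 1, and Ifit1 (0.0184), Psmb9 (0.00101), Tap1 (-0.0193) and Ifi35 (-0.0130) with array weights. An example in the SIRT6 cohort was Cxcl10, with a pseudocount of 64 (-0.0155) and with array weights (-0.0374). The second probe set of Ifi35 gave -0.200 in the SIRT1 cohort, with an adjusted p of 0.087, and 0.00902 in the SIRT6 cohort. With 1 array left out, the ranges that crossed 0 included -0.105 to 0.241 for Cxcl10 and -0.100 to 0.0206 for Mx2 in the SIRT6 cohort. For SIRT1 they included -0.0575 to 0.0980 for Cxcl9, -0.0894 to 0.0114 for Ifit1, -0.0619 to 0.00908 for Irf7, -0.0490 to 0.0613 for Psmb9 and -0.0272 to 0.0751 for Tap1.

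With the replicate number as a block, the counts were 0 and 1 for KO against WT in the SIRT6 and SIRT1 cohorts, 1 for the difference, and 8 and 3 for the cosine in SIRT1-cohort WT and KO, and Dhx58 had an adjusted p of 0.014 in the SIRT1 cohort. The block changed no call of the 35 genes' counts. Over all genes it called 849 in the SIRT6 and 288 in the SIRT1 cohort for KO against WT. The shares of all genes for the difference and the cosine with the block are not given.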
